A study of Mus musculus with 38 samples.

Results

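Immunoglobulin V gene segments are the 218 genes of biotype IG_V_gene among the 78202 genes (0.279%) whose chromatin was mapped by CUT&RUN, which uses an antibody to bring a nuclease to its target and sequences the DNA cut free there. They were taken by biotype alone and parted by locus into 113 segments of the heavy chain (Ighv, chromosome 12, GRCm39 positions 113542124 to 115964081), 102 of the kappa light chain (Igkv, chromosome 6, 67532481 to 70681161) and 3 of the lambda light chain (Iglv, chromosome 16, 18903767 to 19079609). The kappa segments include Gm42543 and Gm43218, which lie within the locus and carry no Igkv symbol. The antibodies bound LAP2B, which sits in the inner nuclear membrane, and lamin B1 (LMNB1), which forms part of the lamina beneath it, and a non-specific antibody (IGG) gave the background.

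LAP2B was mapped in 24 libraries, 3 for each of 4 genotypes at both stages. The stages were naive mouse embryonic stem cells (mESCs), grown in 2i medium with LIF, and epiblast-like cells (EpiLCs), made from them with FGF and Activin A and collected at 48 h. The genotypes were wildtype (WT), LBRKO (no lamin B receptor), TKO (Lamins triple knockout, without lamin A/C, lamin B1 and lamin B2) and QKO (Lamins and LBR quadruple knockout). LBRKO cells were made from the WT line, TKO cells came from a littermate of it, and QKO was a single clone made from TKO, so loss of the lamins and line of origin cannot be told apart in any comparison of TKO or QKO with WT. LMNB1 and IGG were mapped in WT only, 3 libraries per stage, and 2 H3K9me3 samples were not analysed here. The labels do not say that replicates came from separate cultures, so p-values measure the spread between these libraries, which may be technical. Part of the WT culture carried an extra chromosome 6 per the karyotyping described with the cell lines, and this is the kappa chromosome. The median gene of the same chromosome is therefore given beside the medians over kappa segments where any were called. It is given only on the scale relative to the library's median gene, not on the spike-in scale. TKO cells and that part of the WT culture also carried an extra chromosome 8, which holds none of the V segments. The libraries hold genomic DNA, so neither the cell type nor the loss of the targeted proteins could be checked from expression.

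V segments are the coding blocks from which the variable region of an antibody is assembled. In developing B cells the RAG recombinase cuts at a recombination signal sequence beside the segment, made of a heptamer, a spacer and a nonamer, and joins a V segment to D and J segments in the heavy locus and to a J segment in the light chain loci. Mouse V segments lie in long clusters, and in cells outside the lymphoid lineage, embryonic stem cells among them, the heavy and kappa clusters are known to be silent and to lie near the nuclear envelope, whose lamina and lamin B receptor hold heterochromatin.

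The recombination signals are shown because they are where the recombinase cuts and because they locate the end of each segment that faces its partner. D, J and T cell receptor segments carry signals of the same kind, with which these were not compared. Each line gives, 5′ to 3′ on the strand of the segment in GRCm39, the last 9 bases of the annotated segment and the signal after it, with heptamer and nonamer in capitals. The heavy segments are the one nearest to the J segments (Ighv5-2), a segment used in textbooks (Ighv1-72), the segment with the largest LAP2B fall in naive QKO (Ighv1-49) and the one with the most LMNB1 (Ighv2-6).
Ighv5-2 (chr12:113542085-113542132, minus strand): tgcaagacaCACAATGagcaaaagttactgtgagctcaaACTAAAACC
Ighv1-72 (chr12:115721565-115721612, minus strand): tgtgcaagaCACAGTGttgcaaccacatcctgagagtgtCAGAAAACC
Ighv1-49 (chr12:115018805-115018851, minus strand): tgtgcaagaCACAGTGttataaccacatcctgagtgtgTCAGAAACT
Ighv2-6 (chr12:113680251-113680298, minus strand): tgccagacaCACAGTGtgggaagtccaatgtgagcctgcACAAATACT
The kappa segments are the one nearest to the J segments (Igkv3-1) and those with the largest LAP2B falls in naive QKO (Igkv3-2, Igkv4-78) and in naive TKO (Igkv20-101-2).
Igkv3-1 (chr6:70681153-70681189, plus strand): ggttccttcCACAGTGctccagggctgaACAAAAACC
Igkv3-2 (chr6:70676043-70676079, plus strand): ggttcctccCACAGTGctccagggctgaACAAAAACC
Igkv4-78 (chr6:69036646-69036682, minus strand): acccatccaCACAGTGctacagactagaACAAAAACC
Igkv20-101-2 (chr6:68452077-68452113, plus strand): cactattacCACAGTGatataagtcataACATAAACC
All lambda segments are shown.
Iglv1 (chr16:18903728-18903775, minus strand): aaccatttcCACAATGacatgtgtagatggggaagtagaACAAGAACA
Iglv2 (chr16:19079112-19079159, minus strand): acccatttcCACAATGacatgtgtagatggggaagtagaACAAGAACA
Iglv3 (chr16:19059918-19059965, minus strand): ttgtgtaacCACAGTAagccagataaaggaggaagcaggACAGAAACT

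A site was sought as a heptamer that starts with CAC within 12 bases of the segment end. The 9 bases after a spacer of 12 bases (kappa) or 23 bases (heavy and lambda), give or take 1 base, were taken as the nonamer. No least number of matches was required of them. Such a site was found at 215 of the 218 segments, and Ighv1-24, Ighv1-62-1 and Ighv8-13 had none. The nonamer matched ACAAAAACC at 7 or more of 9 bases at 76 heavy, 99 kappa and 3 lambda segments, and in full at 3, 34 and 0. Only spacers within 1 base of the set length were tried, so the split of lengths between the loci follows from the search. Within it, the best match had a spacer of 12 bases at 101 of 102 kappa segments. It was 23 bases at 54 heavy and at all 3 lambda segments. The heptamer at the site read CACAGTG at 82 heavy, 89 kappa and 0 lambda segments. On either strand of the 60 bases 3′ of the segment, CACAGTG stood at 78.9% of V segments and at 1.80% of the 78131 genes with coordinates. In the 300 bases 5′ of the gene start, the octamer ATGCAAAT, an element of immunoglobulin promoters, stood on either strand at 76.1% of V segments (90 heavy, 73 kappa and 3 lambda) and at 2.32% of all genes. These matches describe the sequence and nothing about which factors were bound in these cells. The GC content of the 1 kb bins had a median of 42.1% over heavy, 40.1% over kappa and 39.4% over lambda segments, against 44.5% over all genes.

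A V segment is short, so each deposited value is the coverage of only 1 bin of 1 kb (102 segments) or of 2 bins (116 segments), and no segments shared a bin. Relative density is used below for the value per bin divided by the library's median gene per bin, so that 1 is the median gene of that library. The libraries held between 12028659 and 45689196 recovered reads over all genes, and the median V segment had between 12 and 84 reads in a library, so single segments are imprecise and the loci are described by the median over their segments. Of the 218 segments, 10 were listed at 0 in all 36 libraries (Ighv1-71, Igkv1-135, Igkv4-59, Igkv4-53, Igkv18-36, Igkv1-35, Igkv8-34, Igkv8-26, Igkv6-23 and Igkv3-12), and whether they lie in excluded regions was not tested. Ighv5-16 and Igkv4-71 had reads but fell among the lowest 10% of genes, which left 206 segments for the tests (111 heavy, 92 kappa and 3 lambda). Many V segments are near copies of each other, so the split of reads between them is uncertain for any single segment.

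In naive WT cells the heavy V segments carried several times the LMNB1 of the median gene, the kappa segments less and the lambda segments least. The median heavy segment with any reads had an LMNB1 relative density of 4.83, 3.82 and 3.87 in the 3 libraries (4.18 ± 0.570, mean ± SD, n = 3, 112 segments). The median kappa segment had 2.93, 2.15 and 2.70 (2.59 ± 0.404, 93 segments). The median lambda segment had 1.77, 1.88 and 1.70 (1.78 ± 0.0913, 3 segments). The order heavy, kappa, lambda held in each library and the libraries of different loci did not overlap.

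LAP2B gave the same order in naive WT cells. The median relative density was 3.48, 4.39 and 3.30 over heavy segments (3.72 ± 0.583) and 1.93, 2.21 and 1.90 over kappa segments (2.01 ± 0.170). Over the lambda segments it was 1.14, 1.98 and 1.20 (1.44 ± 0.465), with replicate 2 reaching the level of the kappa libraries, so lambda and kappa did not separate beyond the spread. In the IGG background the heavy segments stood above the median gene too, at 1.89, 1.23 and 1.47 (1.53 ± 0.334), while kappa segments were near it (1.05 ± 0.0642) and lambda segments below (0.781 ± 0.191). The 3 antibody tables were scaled separately, so the ratio to IGG is a description with no test. The median ratio of LMNB1 to IGG was 2.59 over heavy, 2.39 over kappa and 1.97 over lambda segments, and it was above 1 at 111 of 111, 92 of 92 and 3 of 3. For LAP2B the ratios were 2.37, 1.89 and 1.65, above 1 at 111, 87 and 3 segments. The heavy locus thus stood above the kappa locus in IGG as well as in LMNB1 and LAP2B, and what part of the gap is background was not tested.

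**Figure D1:**
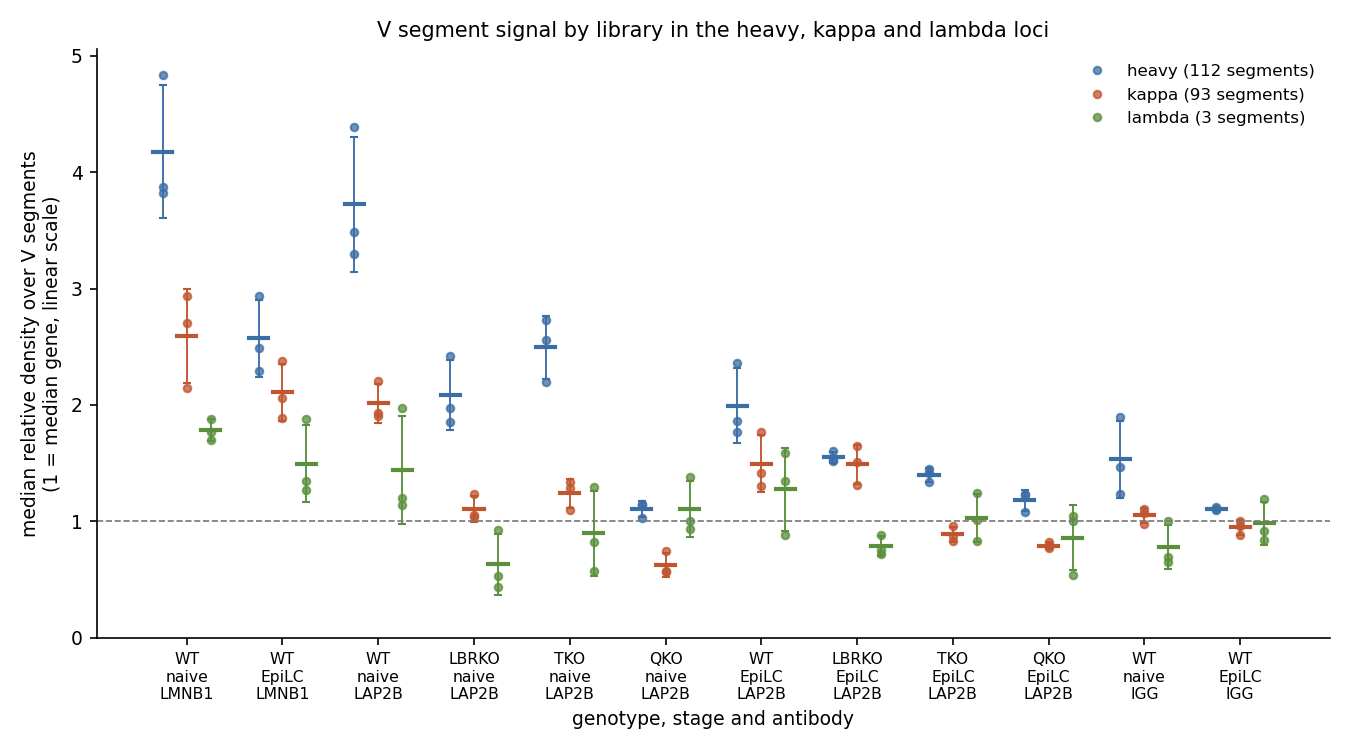
Median relative density (linear axis, 1 is the median gene of the library) over the V segments of the heavy, kappa and lambda loci in each of the 36 libraries. Points are libraries, horizontal marks are means and bars are SD over 3 libraries. The heavy segments sit highest in WT naive LMNB1 and LAP2B, at 4.18 and 3.72, and come down to 1.11 in naive QKO.

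Ranked among the 70381 genes tested, the median heavy segment stood at percentile 99.3 of naive WT LMNB1, the median kappa segment at 93.3 and the median lambda segment at 71.8. Above the 90th percentile were 102 of 111 heavy, 64 of 92 kappa and 0 of 3 lambda segments. In naive WT LAP2B the medians were at percentile 99.1, 89.3 and 62.3. In naive IGG they were at 91.2, 56.7 and 14.9, with 58 heavy and 4 kappa segments above the 90th percentile. In EpiLCs the IGG medians were at 57.4, 41.1 and 52.9, and the LMNB1 medians at 98.4, 94.8 and 83.8, higher than in naive cells for kappa and lambda.

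Single segments spread widely around these medians. Ighv2-6, on chromosome 12, had the highest LMNB1 relative density of all V segments, at 19.1, 17.0 and 16.4 in the naive libraries, with 3.43, 3.52 and 3.93 in IGG. Ighv5-6 followed with 10.9, 12.7 and 11.7. At the low end of the heavy locus were Ighv5-12-4, with 1.83, 0.824 and 1.50, and Ighv1-49, with 1.33, 1.06 and 2.80. The highest and lowest heavy segments did not overlap in any library, which follows in part from their choice by level in these same libraries. In the kappa locus the range was narrower, from Igkv3-9 with 4.60, 3.94 and 3.20 and Igkv1-133 with 4.67, 3.29 and 3.84 down to Igkv4-80 with 1.27, 0.618 and 1.20 and Igkv4-71 with 1.53, 1.12 and 0.801.

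Among families with at least 5 tested segments, naive LMNB1 was highest over Ighv2 (median 6.22, 9 segments), Ighv5 (5.92, 9 segments) and Ighv6 (5.57, 5 segments). It was 4.80 over the 9 Ighv8 segments, 3.92 over Ighv1, the largest family with 52 segments, and 3.09 over the 6 Ighv3 segments. The smaller heavy families spread further, up to 6.94 at Ighv4 with 1 segment and 5.97 over the 2 Ighv11 segments. Kappa families of at least 5 segments were closer together, from 2.36 over Igkv6 to 2.94 over Igkv1 (8 segments each), with 2.40 over the 23 Igkv4 segments, and the smaller ones lay between 1.83 (Igkv7, 1 segment) and 3.45 (Igkv20, 1 segment). Kappa segments point both ways along the chromosome, unlike the heavy and lambda segments. The 35 tested kappa segments in the orientation of the J segments and the 57 in the opposite one had a median LMNB1 of 2.57 and 2.56. Background differed between the heavy families as well. The naive IGG medians over Ighv2, Ighv5, Ighv6, Ighv8, Ighv1 and Ighv3 were 2.04, 2.07, 1.83, 2.13, 1.57 and 1.34. What part of the order of families is background was not tested.

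The heavy segments extend from 149 to 2570 kb from the J segments and the kappa segments from 18.4 to 3166 kb. In the heavy locus the 20 segments within 500 kb of the J segments had a median naive LMNB1 of 5.81 and LAP2B of 4.95, with an IGG of 1.99. Medians were 4.38 and 3.50 over the 25 segments at 500 to 1000 kb, 3.85 and 3.38 over the 26 at 1000 to 1500 kb, and 3.71 and 3.66 over the 18 at 1500 to 2000 kb. They were 4.20 and 4.62 over the 19 at 2000 to 2500 kb, where IGG was again 1.98, and 2.93 and 2.78, with an IGG of 1.11, over the 3 segments farther out. No steady trend ran along the locus: over 111 heavy segments Spearman's rho of LMNB1 with distance was -0.19, and of LAP2B -0.04. Over 92 kappa segments these were 0.09 and -0.13. The level of a heavy segment moved with its IGG level (rho 0.74 for LMNB1 and 0.81 for LAP2B), which was weaker over kappa segments (0.26 for LMNB1), and LAP2B moved with LMNB1 in both loci (0.89 and 0.48). These points share libraries, and for LAP2B, LMNB1 and IGG also mappability and base composition (rho with bin GC content over heavy and kappa segments 0.39 and -0.06 for LMNB1, 0.45 and 0.38 for LAP2B, and 0.40 and 0.35 for IGG), so no p is given.

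**Figure D2:**
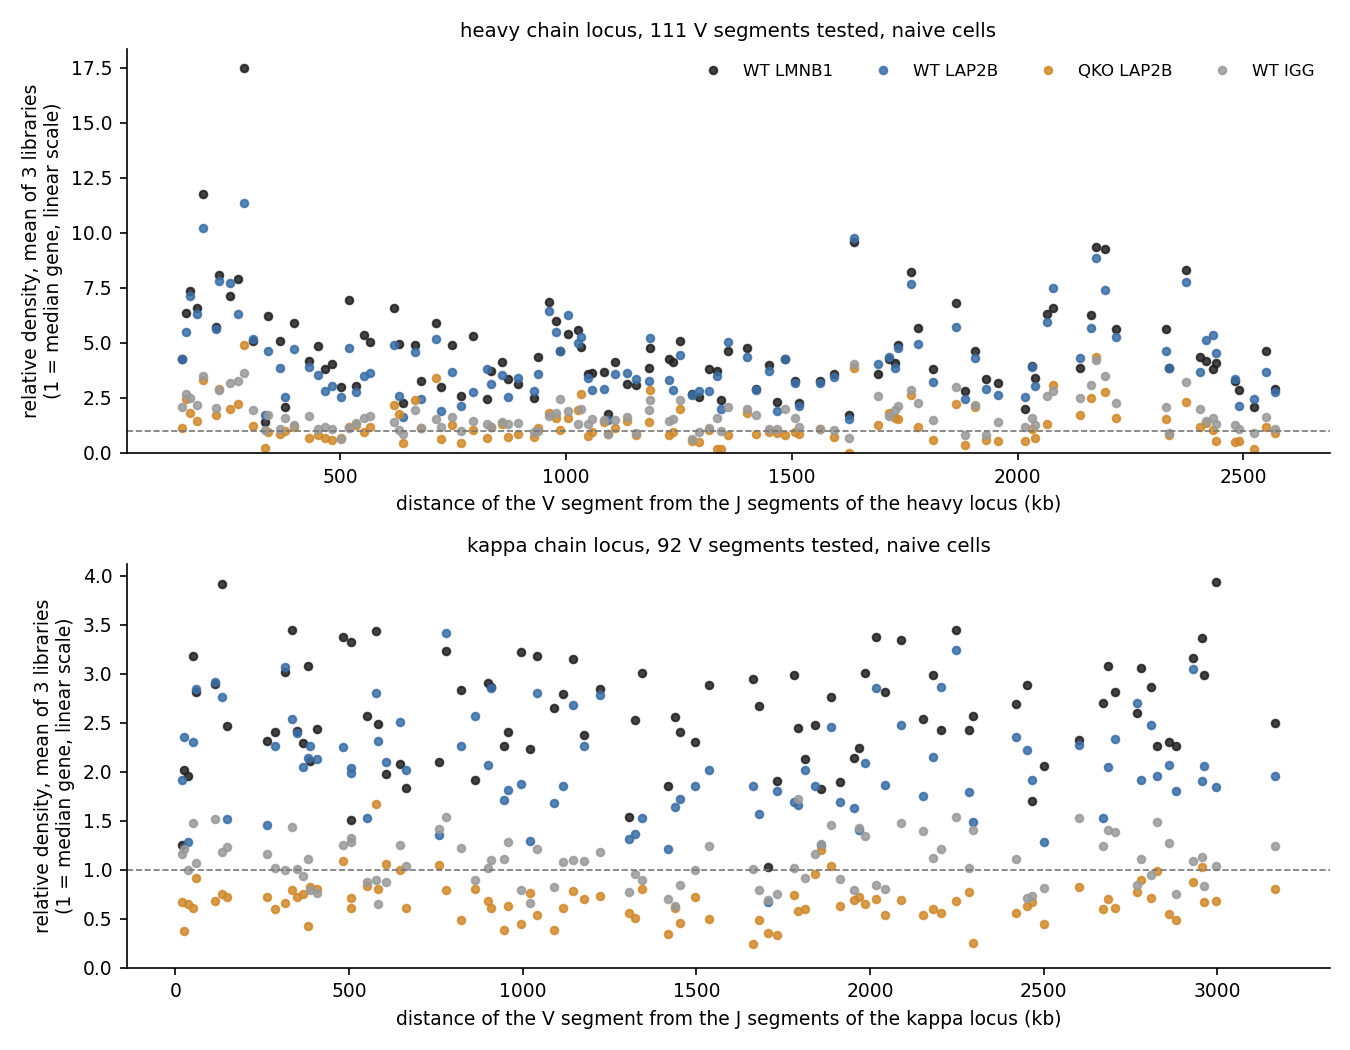
Relative density (linear axis, 1 is the median gene) of each tested heavy (111) and kappa (92) V segment in naive cells against its distance from the J segments in kb. Each point is the mean of 3 libraries, black for WT LMNB1, blue for WT LAP2B, orange for QKO LAP2B and grey for WT IGG. LMNB1 stands above IGG along both loci and LAP2B does at all but 5 kappa segments, Ighv2-6 is the highest heavy point, and the QKO points lie at or below the IGG points at most segments.

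In naive cells without both the lamin B receptor and the lamins, LAP2B was lower than in WT over nearly the whole of the heavy and kappa V clusters. The median heavy segment went from 3.48, 4.39 and 3.30 in WT to 1.14, 1.15 and 1.03 in QKO (1.11 ± 0.0672), and the median kappa segment from 1.93, 2.21 and 1.90 to 0.571, 0.746 and 0.561 (0.626 ± 0.104), with no overlap between WT and QKO libraries. The median lambda segment was 1.00, 1.38 and 0.936 in QKO (1.10 ± 0.239), which overlapped with WT. By limma on the log2 scale, with Benjamini-Hochberg adjusted p under 0.05 over all 70381 genes, 200 of 206 V segments fell and 0 rose on the scale of the deposited sums divided by the median gene, among them 110 of 111 heavy, 89 of 92 kappa and 1 of 3 lambda. Of all genes tested, 42.5% fell and 33.1% rose. The median log2 change was -1.66 over heavy, -1.38 over kappa and -0.61 over lambda segments, against -0.23 over all genes, -0.21 over chromosome 12, -0.59 over chromosome 6 and -0.20 over chromosome 16. With each library divided by the median gene of the same chromosome, 108 heavy, 74 kappa and 1 lambda segments fell, with medians of -1.39, -1.04 and -0.51, where 40.4% of all genes fell. In QKO the ratio to WT IGG had a median of 0.732 over heavy and 0.630 over kappa segments and was above 1 at 17 of 111 and 6 of 92, and no IGG library of QKO was analysed here.

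In relative density, all 3 QKO libraries were under all 3 WT libraries at 106 of 111 heavy, 75 of 92 kappa and 0 of 3 lambda segments, and the same held for 35.5% of all genes. The 6 segments that were not called were Ighv14-3, with a log2 change of -0.58, Igkv1-88 (-0.21), Igkv4-50 (-0.69), Igkv5-37 (-0.51), Iglv1 (-0.46) and Iglv3 (-0.61). On the deposited spike-in scale, which keeps differences in total level, the median gene itself fell from 0.476 ± 0.0770 to 0.164 ± 0.00944 scaled RPKM per bin (n = 3), a median log2 change of -1.24 over all genes. On this scale heavy segments went from 1.80 ± 0.575 to 0.181 ± 0.0110, kappa segments from 0.966 ± 0.239 to 0.102 ± 0.0106 and lambda segments from 0.709 ± 0.349 to 0.180 ± 0.0277. All 206 segments fell there, with medians of -2.48, -2.14 and -1.40, where 65.5% of all genes fell.

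Ighv5-2 (chr12:113542124-113542610), the first heavy segment next to the D segments, had a LAP2B relative density of 3.57, 5.46 and 3.80 in naive WT. The LBRKO libraries had 1.96, 1.38 and 2.17, the TKO libraries 1.79, 1.65 and 2.58 and the QKO libraries 1.36, 1.26 and 0.842. All 9 mutant libraries were below the 3 WT libraries, and the log2 change was -1.07 ± 0.29 (SE) for LBRKO, -1.0 ± 0.29 for TKO and -1.70 ± 0.29 for QKO (limma, Benjamini-Hochberg adjusted p = 0.00178, 0.00397 and 1.00e-06). Ighv1-85, the heavy segment farthest from the J segments, went from 3.14, 2.56 and 2.65 in WT to 0.929, 0.833 and 0.982 in QKO (limma log2 change -1.59, adjusted p = 1.18e-06), with no overlap.

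Ighv1-72 (chr12:115721604-115722081), the V segment of the antibody response to the hapten NP, had 4.71, 4.94 and 4.20 in the WT libraries against 2.42, 2.41 and 2.34 for LBRKO. TKO was at 4.43, 3.23 and 3.29, and QKO was at 1.61, 1.67 and 1.36. LBRKO and QKO did not overlap with WT, while TKO did. The change was -0.93 ± 0.25 for LBRKO, -0.42 for TKO and -1.68 for QKO (limma, adjusted p = 0.00148, 0.161 and 4.72e-08), and from TKO to QKO it was -1.26 (adjusted p = 2.98e-05).

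The largest heavy falls in naive QKO were at segments of the Ighv1 family that were already low in TKO. Ighv1-49 (chr12:115018843-115019276) had 2.04, 1.69 and 0.900 in the WT libraries and 0.774, 0.690 and 0.659 in the LBRKO libraries, then 0.0357, 0.206 and 0.250 in the TKO libraries and 0 in each QKO library. Against 104 reads in the WT libraries, the 0 reads of QKO put it at least 43.2-fold lower in relative density, taking 3 reads over the group as the floor for counting error, and in TKO the change was -2.11 ± 0.33 (limma, adjusted p = 7.24e-07). In EpiLCs it had 1 read in the QKO and 2 in the TKO libraries against 45 in WT. A difference between the lines in the DNA of this segment and a loss of LAP2B cannot be told apart. Ighv1-23 (chr12:114728070-114728503) went from 2.71, 3.02 and 4.70 in WT to 0.714, 0.550 and 0.917 in TKO and 0.143, 0.230 and 0.187 in QKO. Its libraries did not overlap between these genotypes, with changes of -1.72 ± 0.30 in TKO and -2.55 in QKO (limma, adjusted p = 5.33e-06 and 1.22e-10). The segments with the most LMNB1 fell too but kept a high level: Ighv2-6 went from 8.71, 13.7 and 11.6 in WT to 5.93, 3.96 and 4.77 in QKO (-1.38 ± 0.24, limma, adjusted p = 1.07e-06), and Ighv5-6 from 11.3, 11.0 and 8.40 to 3.00, 2.70 and 4.30 (-1.74 ± 0.27, limma, adjusted p = 8.76e-08).

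In the kappa locus, Igkv3-1, the segment next to the J segments, had 2.21, 1.22 and 2.3 in naive WT and 0.143, 1.03 and 0.842 in QKO, which did not overlap (-1.52 ± 0.32, limma, adjusted p = 3.92e-05). Its LBRKO libraries had 1.68, 1.25 and 0.955 and its TKO libraries 1.00, 1.10 and 1.29, within or just below the WT range. Igkv2-137 at the far end went from 1.54, 2.44 and 1.90 to 1.29, 0.746 and 0.374 (-1.34 ± 0.32, limma, adjusted p = 0.000226). The largest kappa falls in QKO were at Igkv3-2, from 2.00, 2.50 and 2.55 to 0.214, 0.459 and 0.468 (-2.21 ± 0.31, limma, adjusted p = 9.11e-09), and at Igkv4-78, from 0.714, 2.79 and 2.05 to 0.0714, 0.517 and 0.140 (-2.13 ± 0.34, limma, adjusted p = 2.90e-07). At each of these segments the QKO libraries lay below all WT libraries.

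Of the lambda segments, 1 passed the test in naive QKO. Iglv1 (chr16:18903767-18904250) had 1.36, 1.28 and 1.20 in naive WT and 1.00, 1.67 and 0.655 in QKO, which overlapped (-0.46, limma, adjusted p = 0.174). Iglv3 (chr16:19059957-19060440) had 0.607, 1.98 and 0.900 in WT and 1.11, 0.287 and 1.03 in QKO, which overlapped too (-0.61 ± 0.35, limma, adjusted p = 0.110). Iglv2 (chr16:19079151-19079609) had 1.14, 2.21 and 2.00 in WT and 0.571, 1.38 and 0.936 in QKO, a called fall of -0.81 (limma, adjusted p = 0.0168) although the libraries overlapped, and it was lost without QKO naive LAP2B replicate 1, at -0.61, without WT replicate 2, at -0.67, and without WT replicate 3, at -0.74 (adjusted p = 0.107, 0.0779 and 0.0528). In LBRKO, Iglv1 fell to 0.928, 0.431 and 0.461, below all WT libraries (-0.91 ± 0.31, limma, adjusted p = 0.0101), and this call was lost without LBRKO naive LAP2B replicate 2 or 3 (-0.78 and -0.80, adjusted p = 0.0512 and 0.0510).

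**Figure D3:**
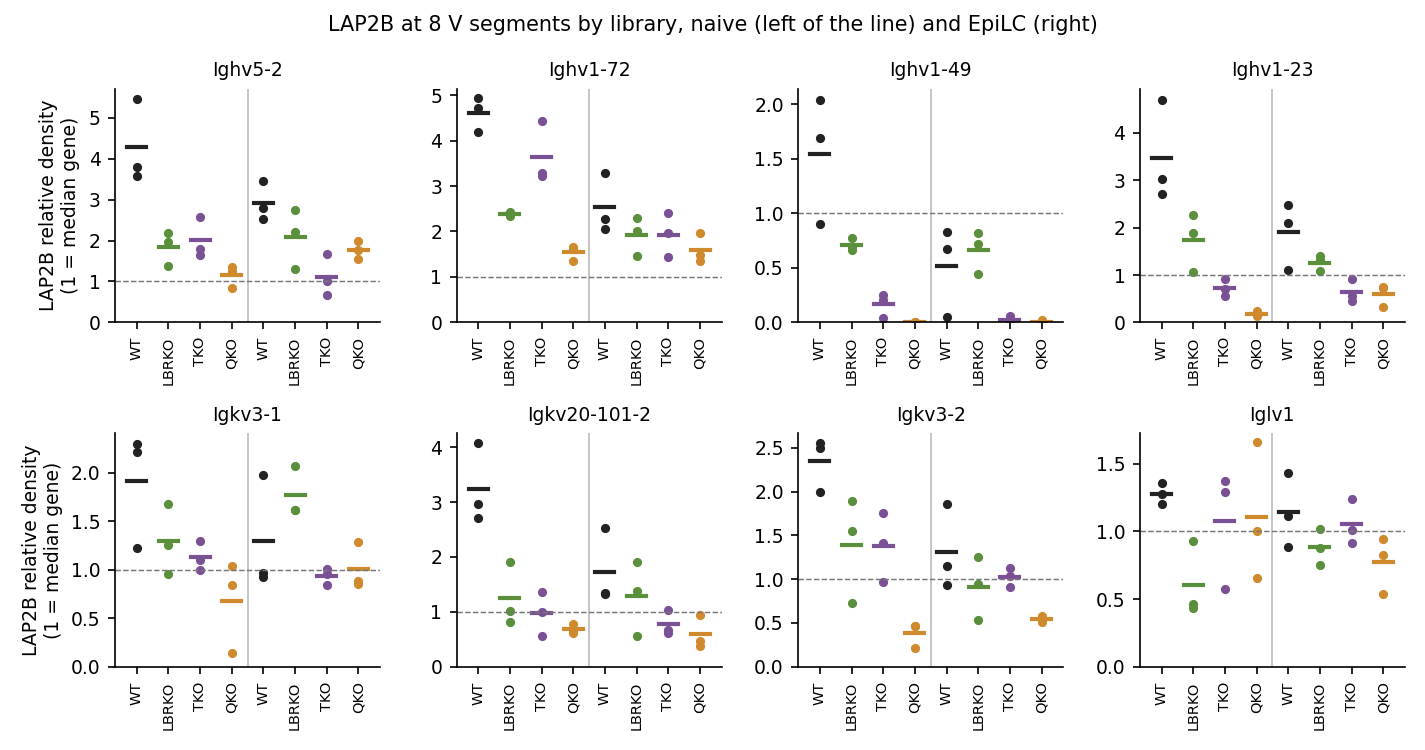
LAP2B relative density (linear axes that start at 0 and differ in range between panels, dashed line at the median gene) of 8 V segments in each library, naive left and EpiLC right of the vertical line. Points are libraries and marks are means of 3. Ighv1-49 has 0 in the 3 naive QKO libraries, Ighv1-72 overlaps with WT in naive TKO, at 4.43, 3.23 and 3.29, and the naive WT and QKO libraries of Iglv1 overlap.

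In naive cells without the lamin B receptor alone, LAP2B was called lower at many heavy and kappa segments, and how many depended on the scale. The median heavy segment was at 2.42, 1.85 and 1.98 in LBRKO (2.08 ± 0.300) and the median kappa segment at 1.24, 1.03 and 1.05 (1.11 ± 0.112). The median lambda segment was at 0.928, 0.431 and 0.527 (0.629 ± 0.264). In each locus all LBRKO libraries were below the WT libraries. By limma 117 of 206 V segments fell (76 heavy, 39 kappa and 2 lambda) and 0 rose, where 27.7% of all genes fell and 28.9% rose. The median changes on this relative scale were -0.84, -0.66 and -0.74, against 0.04 over all genes. Chromosome 6 as a whole moved the other way, with a median of 0.33, and so did the genes within 500 kb of the kappa locus that are no immunoglobulin genes, with a median of 0.80 (26 of 40 rose and 3 fell). Divided by the median gene of the same chromosome, 65 heavy, 56 kappa and 1 lambda segments fell, where 26.5% of all genes fell. The genes flanking the heavy locus had a median of 0.36 (21 of 48 rose and 2 fell). On the spike-in scale 62 V segments fell (40 heavy, 21 kappa and 1 lambda) and 0 rose, where 17.8% of all genes fell and 28.2% rose, with medians of -0.70, -0.55 and -0.68 against 0.21 over all genes.

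Within the heavy locus the calls in LBRKO on the relative scale were uneven by family and position. The falls took in 42 of 52 Ighv1 segments, 9 of 9 Ighv8, 8 of 9 Ighv5 and 5 of 5 Ighv6. They took in 6 of 9 Ighv2 and 3 of 6 Ighv3, and 0 of 4 in each of Ighv7, Ighv9 and Ighv14. Of all genes 27.7% fell, and with 4 segments in a family 0 calls cannot be told apart from that share. By distance from the J segments they were 14 of 20 within 500 kb, 7 of 25 at 500 to 1000 kb, 20 of 26, 15 of 18 and 18 of 19 in the next classes of 500 kb, and 2 of 3 beyond 2500 kb. The class at 500 to 1000 kb was near the share of all genes. Differences between families or classes were not tested. Families occupy stretches of the locus, so family and position cannot be told apart. Ighv8-13 had the largest fall, from 2.86, 4.18 and 4.60 to 1.37, 1.64 and 0.527 (-1.64 ± 0.30, limma, adjusted p = 8.53e-06), and Ighv1-78 went from 3.79, 6.39 and 3.50 to 1.08, 1.12 and 1.71 (-1.49, limma, adjusted p = 4.54e-05). In the kappa locus, Igkv14-100 went from 2.36, 3.43 and 2.80 to 1.01, 0.776 and 0.889 (-1.48 ± 0.31, limma, adjusted p = 7.36e-05) and Igkv10-96 from 1.86, 3.49 and 2.10 to 0.903, 0.948 and 0.461 (-1.45 ± 0.33, limma, adjusted p = 0.000189). No LBRKO library overlapped with WT at any of these 4 segments, which were chosen as the largest falls of this comparison.

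In naive cells without the lamins but with the receptor, the count of called segments was below that of LBRKO on the relative scale and above it on the spike-in scale. In naive TKO the median heavy segment was at 2.55, 2.20 and 2.73 (2.49 ± 0.270), the median kappa segment at 1.29, 1.10 and 1.33 (1.24 ± 0.123) and the median lambda segment at 0.571, 0.825 and 1.29 (0.896 ± 0.365). Heavy and kappa medians lay below all WT libraries, and lambda overlapped. By limma 75 segments fell (40 heavy, 35 kappa and 0 lambda) and 0 rose, against 27.6% and 21.8% of all genes. The medians were -0.49, -0.66 and -0.52, against -0.11 over all genes and -0.28 over chromosome 6. The count was 47 without WT naive LAP2B replicate 2 and 37 when libraries were divided by their mean gene, but 171 on the spike-in scale (94 heavy, 74 kappa and 3 lambda), where 47.5% of all genes fell. Among kappa segments, Igkv20-101-2 went from 2.96, 4.07 and 2.70 to 1.36, 0.550 and 1.00 (-1.62 ± 0.33, limma, adjusted p = 6.55e-05) and Igkv14-111 from 1.43, 2.32 and 2.00 to 0.714, 0 and 0.50 (-1.51 ± 0.30, limma, adjusted p = 4.45e-05), with no overlap in either.

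Between TKO and QKO, which differ by the loss of the receptor in cells of the same origin, naive LAP2B fell at 147 V segments (96 heavy, 51 kappa and 0 lambda) and rose at 0, where 27.2% of all genes fell and 26.4% rose. The median changes were -1.12, -0.80 and -0.12, against -0.07 over all genes and -0.24 over chromosome 6. QKO was a single clone, so loss of the receptor and differences of that clone from TKO cannot be told apart.

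**Figure D4:**
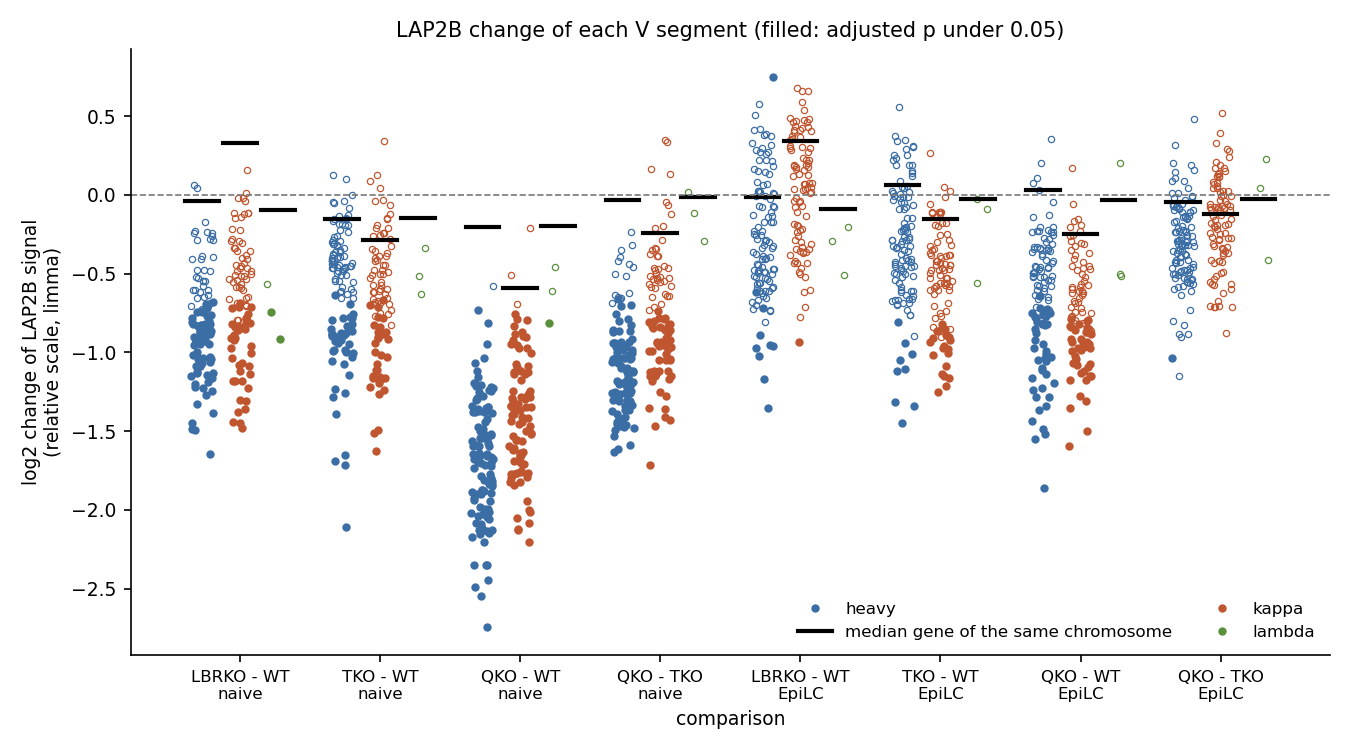
Log2 change of LAP2B at each tested V segment in 8 comparisons of genotypes, by locus (relative scale, limma). Filled points passed an adjusted p under 0.05, open points did not, and black marks give the median gene of the same chromosome. Over heavy and kappa segments the naive QKO medians are the lowest, at -1.66 and -1.38, and the EpiLC medians of each comparison lie closer to 0 than the naive ones.

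In EpiLCs the V segments of WT cells carried less LAP2B than in naive cells in the heavy locus. The authors reported that LAP2B in WT EpiLCs marked regions both inside and outside those in contact with the lamina by LMNB1. They did not rely on it there as a stand-in for lamina contact, so the EpiLC values describe LAP2B signal only. The median heavy segment was at 2.36, 1.76 and 1.86 (1.99 ± 0.320), below all naive libraries, the median kappa segment at 1.77, 1.41 and 1.30 (1.49 ± 0.245) and the median lambda segment at 1.35, 1.59 and 0.883 (1.27 ± 0.359). From naive to EpiLC, 77 segments fell by limma (71 heavy, 6 kappa and 0 lambda) and 0 rose, where 17.1% of all genes fell and 15.1% rose. The median changes were -0.83, -0.32 and -0.13, against -0.07 over all genes and -0.12 over chromosome 6. The count was 38 without WT naive LAP2B replicate 2, the WT library with the highest heavy level, and 20 on the spike-in scale, where 1.75% of all genes fell.

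By the same test LMNB1 fell from naive cells to EpiLCs at 31 heavy, 0 kappa and 0 lambda segments (medians -0.62, -0.23 and -0.00, against -0.04 over all genes and -0.06 over chromosome 6), where 7.09% of all genes fell and 6.34% rose. Its median heavy level in EpiLCs was 2.29, 2.94 and 2.49 (2.57 ± 0.331), and that of kappa segments 2.11 ± 0.248. Leaving out a single library gave 4 without WT EpiLC LMNB1 replicate 1 and 6 without its replicate 3, and 12, 46 and 16 without WT naive LMNB1 replicates 1, 2 and 3. On the spike-in scale limma called 0 (11 at an unadjusted p under 0.05). Ighv1-36 went from 4.80, 3.53 and 3.67 to 2.15, 0.750 and 1.43 (-1.25 ± 0.31, limma, adjusted p = 0.00973), and Ighv1-72 changed by -0.92 ± 0.21 (adjusted p = 0.00677). Ighv1-26 went from 5.53, 3.82 and 4.57 to 1.82, 3.41 and 1.14 (-1.13 ± 0.28, limma, adjusted p = 0.0107), a call lost without WT EpiLC LMNB1 replicate 1, at -1.10, or replicate 3, at -0.80 (adjusted p = 0.0677 and 0.0914). In IGG the heavy segments moved in the same direction, from 1.53 ± 0.334 to 1.11 ± 0.0124, with a median log2 change of -0.39, and 0 V segments were called by limma or by edgeR (26 and 24 at an unadjusted p under 0.05), where 0.418% of all genes fell and 0.0725% rose. The part of the background in the stage changes was not tested.

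In EpiLCs the comparisons of genotypes called fewer V segments. In QKO the median heavy segment was at 1.22, 1.08 and 1.24 (1.18 ± 0.0899) and the median kappa segment at 0.765, 0.818 and 0.789 (0.791 ± 0.0265), below all WT libraries, and the median lambda segment at 0.859 ± 0.279. By limma 83 segments fell (43 heavy, 40 kappa and 0 lambda) and 0 rose, where 17.8% of all genes fell and 18.3% rose, with medians of -0.57, -0.77 and -0.50 against 0.02 over all genes and -0.25 over chromosome 6. Divided by the median gene of the same chromosome, the calls were 39, 24 and 0, where 16.8% of all genes fell. The count was 52 without WT EpiLC LAP2B replicate 1 and 196 on the spike-in scale, where 55.7% of all genes fell.

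On the log2 scale with its pseudocount, Ighv1-24 had the largest fall in EpiLC QKO, from 2.70, 1.06 and 1.49 to 0.122, 0 and 0.158 (-1.86 ± 0.29, limma, adjusted p = 1.58e-06). Ighv1-49, with 1 read against 45 in WT, was at least 19.5-fold lower in relative density by the floor of 3 reads. Ighv1-4 went from 3.50, 2.03 and 1.72 to 0.612, 0.748 and 0.605 (-1.55 ± 0.33, limma, adjusted p = 0.000174). Igkv3-7 went from 2.78, 2.35 and 1.58 to 0.612, 0.748 and 0.421 (-1.59 ± 0.31, limma, adjusted p = 4.85e-05) and Igkv3-5 from 2.53, 2.41 and 2.60 to 0.367, 0.514 and 0.947 (-1.50 ± 0.29, limma, adjusted p = 6.12e-05). The next statement is on Ighv1-24, Ighv1-4, Igkv3-7 and Igkv3-5. No QKO library reached the range of WT at any of these 4 segments, which were chosen as the largest falls of this comparison. Ighv1-24 was lower in all 12 libraries without lamins, naive and EpiLC, than in the 12 with them.

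In EpiLC TKO, 29 segments fell (9 heavy, 20 kappa and 0 lambda) and 0 rose by limma, where 9.97% of all genes fell and 8.68% rose, with medians of -0.32, -0.53 and -0.09 against -0.15 over chromosome 6. The count was 10 without WT EpiLC LAP2B replicate 1 and 14 and 19 without TKO replicates 1 and 2, and divided by the median gene of the same chromosome 18 fell (10 heavy and 8 kappa) and 1 rose, where 8.88% of all genes fell and 6.08% rose. In EpiLC LBRKO, 10 fell (9 heavy and 1 kappa) and 1 rose, where 10.1% of all genes fell and 13.3% rose, so the share of V segments was below that of all genes in each direction. The medians were -0.32 over heavy, 0.06 over kappa and -0.29 over lambda segments, against 0.34 over chromosome 6, and the count of 11 was 6 without WT EpiLC LAP2B replicate 1. The segment that rose was Ighv9-3 (0.75, limma, adjusted p = 0.0342), a call lost on the spike-in scale (adjusted p = 0.127) and without LBRKO replicate 2 or 3 or WT replicate 1 or 2 (adjusted p = 0.122, 0.0829, 0.185 and 0.0672). The kappa segment that fell was Igkv4-57-1 (-0.93), a call lost on the spike-in scale (limma, adjusted p = 0.0526) and without any library but LBRKO replicate 2 (adjusted p = 0.0513 to 0.0768). Between TKO and QKO in EpiLCs, 1 segment fell, Ighv8-2 (-1.04, limma, adjusted p = 0.0237), where 0.27% of all genes fell and 0.933% rose, and 0 were called by limma when any TKO or QKO library other than QKO EpiLC LAP2B replicate 3 was left out (2 without that one). On the spike-in scale 57 fell (41 heavy and 16 kappa), where 28.4% of all genes fell. These 3 segments fell outside the naming rule and were chosen after their values were seen.

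The difference between stages was tested as an interaction in the same limma model. The effect of QKO was less negative in EpiLCs than in naive cells at 85 V segments (71 heavy, 14 kappa and 0 lambda) and more negative at 0, where 24.9% of all genes had a higher and 20.9% a lower effect. The median differences were 1.08 over heavy, 0.70 over kappa and 0.09 over lambda segments, against 0.21 over all genes and 0.31 over chromosome 6. The effect of LBRKO was less negative in EpiLCs at 17 segments (9 heavy and 8 kappa), with medians of 0.56, 0.70 and 0.54 against 0.08 over chromosome 6 and 0.04 over all genes, of which 10.2% had a higher and 9.55% a lower effect, so the share of V segments (8.25%) was below that of all genes. Limma called 0 of them on the spike-in scale (25 at an unadjusted p under 0.05), 7 with each library divided by its mean or by the median gene of the chromosome, and 4 without WT naive LAP2B replicate 2. Without LBRKO EpiLC replicate 1 or 2, LBRKO naive replicate 2 or 3, or WT EpiLC replicate 3 the counts were 8, 9, 11, 9 and 10. The count for QKO was 56 without WT naive LAP2B replicate 2, 49 with each library divided by the median gene of the chromosome, 55 with each divided by its mean, 54 by edgeR, and 54 with each library divided by its median gene per bin, a scaling added after seeing the data. For TKO 0 segments differed by limma or edgeR (14 and 7 at an unadjusted p under 0.05), where 5.79% of all genes had a higher and 3.81% a lower effect, and leaving out single libraries gave 0 to 3.

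Setting the 4 groups without lamins (TKO and QKO) against the 4 with lamins (WT and LBRKO), 170 V segments were lower (83 heavy, 87 kappa and 0 lambda) and 1 was higher, Ighv1-67 (0.25, limma, adjusted p = 0.0490), where 37.4% of all genes were lower and 27.7% higher. Ighv1-67 was called lower on the spike-in scale (-0.47, limma, adjusted p = 0.00584), and its call was lost with the replicate block, with the larger pseudocount and in 17 of the 24 fits without a library, and it was named after its values were seen. The medians were -0.51, -0.67 and -0.05, against -0.11 over all genes and -0.48 over chromosome 6, and 112 were lower when divided by the median gene of the same chromosome, where 35.3% of all genes were lower. Among 208 segments with reads, 3 heavy segments had fewer in each of the 12 libraries without lamins than in any of the 12 with them, in relative density: Ighv1-24 with 38 reads against 246, Ighv1-23 with 97 against 336, and Ighv5-16, which the filter had removed, with 5 against 166. Of the 206 segments tested, 2 (0.971%) lay wholly below, near the share of all genes tested, of which 0.899% lay wholly below and 1.62% wholly above. These segments were looked for after the values were seen. A difference between the lines in the DNA of the segments and a loss of LAP2B cannot be told apart, since IGG was mapped in WT only.

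The neighbours of the V segments within the loci moved with them in naive QKO. Among V pseudogenes, which lie between the V segments and lack an open reading frame, 76 of 78 fell in the heavy locus (median -1.54) and 64 of 66 in the kappa locus (-1.34), where 42.5% of all genes fell. All 11 tested D segments (-1.64) and all 8 constant region genes (-2.26) of the heavy locus fell, as did all 5 J segments (-0.92) and the constant region gene (-1.19) of the kappa locus, while the heavy J segments were listed at 0. The median gene of the kappa chromosome fell in this comparison too, by the value given above for the V segments, so part of the kappa falls is shared with the chromosome. In the lambda locus 3 of 5 J segments (-0.81) and 3 of 4 constant region genes (-0.77) fell. Sharing of bins was checked among V segments only. Genes within the same bin have equal values, so these counts of neighbours may repeat a measurement. Genes flanking the loci within 500 kb had medians of -0.02 by the heavy, -0.33 by the kappa and 0.63 by the lambda locus on the relative scale, and of -1.07, -1.31 and -0.49 on the spike-in scale, where the median over all genes was -1.24. The V segments of the T cell receptor loci, which use the same recombinase, fell at 98 of 131 with a median of -0.99. In naive LBRKO 55 of 78 heavy and 34 of 66 kappa pseudogenes fell (medians -0.81 and -0.73), where 27.7% of all genes fell. The T cell receptor V segments fell at 30 of 131 there (-0.38), a smaller share than that of all genes. On the spike-in scale 23 heavy and 27 kappa pseudogenes and 10 T cell receptor V segments fell in naive LBRKO, where 17.8% of all genes fell.

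The genes that act on V segments in lymphocytes were called in both directions in LAP2B on the relative scale. Of 13 genes of V(D)J recombination, 5 rose and 5 fell in naive QKO, 6 rose and 1 fell in LBRKO, and 2 rose and 5 fell in TKO. Of all genes, 33.1% rose and 42.5% fell in naive QKO, 28.9% and 27.7% in LBRKO, and 21.8% and 27.6% in TKO. Hmgb2 (1.15), 1 of the 2 recombination genes that rose in TKO, lies on chromosome 8, of which TKO cells carried an extra copy. Rag1 (-0.91) and Rag2 (-1.23), the recombinase subunits, and Xrcc4 (-1.17), a cofactor of the ligase that seals the ends, fell in QKO, and Xrcc6 (1.94), which encodes the Ku70 end-binding protein, rose. Of 16 genes of the B lineage, 9 rose and 4 fell in naive QKO, 8 rose and 4 fell in LBRKO, and 5 rose and 4 fell in TKO. The transcription factor genes Spi1 (2.18) and Tcf3 (2.38) and Cd79a (2.04), a signalling chain of the B cell receptor, rose, and Ikzf1 (-1.75), a lymphoid transcription factor, and Il7r (-1.09), the receptor for interleukin 7, fell. On the spike-in scale the counts moved toward falls in QKO and TKO, while in LBRKO rises outnumbered falls as on the relative scale. There 1 recombination gene rose and 9 fell in naive QKO, 0 and 10 in TKO, and 6 and 0 in LBRKO, and of the B lineage genes 3 rose and 9 fell in QKO, 0 and 7 in TKO, and 8 and 2 in LBRKO. Of all genes, 10.1% rose and 65.5% fell in naive QKO on that scale, 2.43% and 47.5% in TKO, and 28.2% and 17.8% in LBRKO. The direction of single genes depended on the scale too. Pax5, Btk and Xrcc5 were called rises in naive QKO on the relative scale (0.67, 0.37 and 0.30). On the spike-in scale they were called falls (-0.57, -0.84 and -0.94). Rag1, Rag2, Xrcc4, Ikzf1 and Il7r stayed falls in naive QKO. Xrcc6, Tcf3, Spi1 and Cd79a stayed rises, at 0.70, 1.15, 0.95 and 0.86 (adjusted p = 0.00484, 8.83e-06, 0.000161 and 0.00910 by limma). Hmgb2, named above for TKO, did not keep its direction in naive QKO. It had 0.79 on the relative and -0.39 on the spike-in scale (adjusted p = 5.46e-05 and 0.212 by limma).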

How the data were processed

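LAP2B, LMNB1 and IGG CUT&RUN signal was read from the deposited gene tables for 36 libraries. The authors aligned read pairs with Bowtie2 2.3.5.1 to mm39, kept properly paired primary alignments with SAMtools 1.10, removed duplicates, and computed RPKM coverage in bins with deepTools, scaled by yeast spike-in reads and with blacklisted regions left out. How bins were joined to genes is not given in the sources used here. The deposited signal equals the sum over the 1 kb bins a gene touches: in 343 of 343 sets of genes within 1 shared bin the values were equal (difference under 0.0001). The values of each library came out whole when divided by the value of 1 read (100%, tolerance 0.1 read), which gave back the reads. Replicates differed by more than counting error (chi-square per degree of freedom 3.33 to 12.2 over 36 pairs).

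For the tests, values were divided by the median gene of their library, 0.1 of the table median was added, and log2 values were tested two-sided with limma 3.58.1 in R 4.3.3 (group means, eBayes with trend), separately for LAP2B, LMNB1 and IGG, after leaving out the lowest 10% of genes by mean over all libraries (70381 of 78202 tested). The relative densities of single libraries use the median gene per bin instead, and the tests were repeated with it, a choice made after seeing the data. Fold changes are on this log2(value + pseudocount) scale, which understates changes of low genes. P-values were Benjamini-Hochberg adjusted over all genes tested and calls made at 0.05. edgeR 4.0.16 on the recovered reads, an alternative, called 52368 genes in naive QKO. The scripts were tested on simulated data.

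Named V segments were all Iglv; per other locus the nearest to and farthest from J, the 2 highest and lowest in naive LMNB1, and the 2 largest called changes of the main comparisons; and Ighv5-2 and Ighv1-72. Segments, lists and tests were chosen with earlier results of these data known. Where a segment was named for its large change, its lack of overlap between groups follows in part from that choice.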

Additional observations from a re-analysis of the deposited data

Results flagged for a closer look

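At some V segments the LAP2B effect of QKO or LBRKO differed between stages by the interaction test in limma (Benjamini-Hochberg adjusted p under 0.05). For QKO, 85 of 206 V segments had a less negative LAP2B effect in EpiLCs than in naive cells, where 24.9% of all genes had a higher effect, and 49 to 55 were called with each library divided by the median gene of the chromosome, by its mean or by its median gene per bin or with edgeR, and 56 without WT naive LAP2B replicate 2. For LBRKO, 17 did (8.25%, where 10.2% of all genes had a higher effect), with 4 called without the same library, 7 with each library divided by its mean or by the median gene of the chromosome, and 0 by limma on the spike-in scale (25 at an unadjusted p under 0.05). The WT level of heavy segments was itself lower in EpiLCs, at 1.99 ± 0.320 against 3.72 ± 0.583 (SD, n = 3), and what part of the difference between stages comes from the mutants was not tested.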

How the results depend on the processing

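The counts of calls in naive QKO against WT and TKO stayed within 1.5 times of those reported under each alternative, and those calls were falls except 1 rise, of Gm43218 (named after its values were seen), in QKO against TKO without TKO naive LAP2B replicate 2. The 173 called changes of named segments were refitted 3010 times in all, and none reversed. They had been called in these same libraries, many of them named for their size, so a reversal was unlikely from the start. The call was kept in 2639 refits, with a median of 1.00 times the reported log2 change (0.336 to 3.98), and lost in 371, with a median of 0.868 times (0.118 to 2.26). On the spike-in scale the counts of V segments called were 62 in naive LBRKO, 171 in naive TKO, 5 in EpiLC LBRKO, 196 in EpiLC QKO, 57 for EpiLC QKO against TKO, 20 for the LAP2B stage change in WT, and 0 by limma for the stage difference of LBRKO (25 at an unadjusted p under 0.05) and the LMNB1 stage change (11). Divided by the library mean they were 37 in naive TKO, 47 for the LAP2B and 11 for the LMNB1 stage change, and 7, 1 and 55 for the stage differences of LBRKO, TKO and QKO. Divided by the median gene of the chromosome they were 19 in EpiLC TKO, 113 for lines without lamins, 14 for the LMNB1 stage change, and 7, 1 and 49 for the stage differences. With a pseudocount of 0.5 of the median, 35 and 2 segments were called for the stage differences of LBRKO and TKO. With no filter 0 were called by limma for EpiLC QKO against TKO (23 unadjusted) and for the LMNB1 stage change (69 unadjusted). edgeR called 2 for EpiLC QKO against TKO and 54 for the stage difference of QKO. Divided by the median gene per bin, an alternative added after seeing the data, 1 segment was called for the stage difference of TKO and 54 for that of QKO. The cause was not tested.

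The rise of Ighv1-67 in lines without lamins turned to a fall of -0.47 on the spike-in scale.

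Leaving out each library in turn gave counts of 79 to 118 in naive LBRKO, 47 to 79 in naive TKO, 193 to 199 in naive QKO, 123 to 150 for naive QKO against TKO, 6 to 10 in EpiLC LBRKO, 10 to 31 in EpiLC TKO, 52 to 80 in EpiLC QKO, 0 to 2 for EpiLC QKO against TKO, 38 to 82 for the LAP2B and 4 to 46 for the LMNB1 stage change, 161 to 171 for lines without lamins, and 4 to 20, 0 to 3 and 56 to 85 for the stage differences of LBRKO, TKO and QKO.

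Replicate numbers did not pair the libraries: in no comparison did every same-numbered pair deviate together by a correlation over 0.1. With the replicate number as a block, 21 segments were called for the LMNB1 stage change in place of 31, 118 in naive LBRKO in place of 117, and 168 for lines without lamins in place of 171.

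The deposited sums grow with the number of bins and are on another scale than relative density. Their medians over heavy, kappa and lambda segments in WT were 1.17, 0.807 and 0.524 in naive LMNB1, 0.708, 0.685 and 0.558 in EpiLC LMNB1, 1.03, 0.588 and 0.374 in naive LAP2B, 0.513, 0.448 and 0.430 in EpiLC LAP2B, 0.428, 0.307 and 0.270 in naive IGG, and 0.309, 0.289 and 0.239 in EpiLC IGG, so the order of the loci was the same except in EpiLC IGG, where relative density put lambda (0.982) above kappa (0.947) and the sums did not. The mean over heavy segments in EpiLC IGG was 1.27 where the median was 1.11. Pearson's r of heavy naive LMNB1 with distance from the J segments was -0.17. No V segments shared a bin, so leaving out such segments changed no level. With a median of 12 to 84 reads per segment and library, changes of single segments are imprecise.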
